A study of Mus musculus with 24 samples.

Results

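The inhibitory transmitter GABA was followed here through 7 mouse genes that make it, load it into vesicles, take it up, break it down and sense it. They were chosen by name for these roles and not by a rule on measured values, but earlier results of these data were known. Gad1 and Gad2 stand for synthesis, Slc32a1 for vesicle loading, Slc6a11 for uptake, Abat for breakdown, and Gabbr1 and Gabbr2 for the GABA-B receptor. All 7 passed the filter on low counts, among 19726 tested genes of 52636 counted identifiers. The libraries come from whole RNA of mouse brain in a study of EAAT2 (gene Slc1a2), the main glutamate transporter of the forebrain, deleted in neurons or in astrocytes. Each of 4 groups holds 6 mice. The syn Cre-positive mice carry a syn-Cre transgene and have the genotype EAAT2−/−. Their syn Cre-negative controls are EAAT2+/+. The gfap Cre-positive mice carry gfapCre and have the genotype EAAT2Δ/+, and their gfap Cre-negative controls are EAAT2+/+. The labels name Syn or GFAP as a cell type, but the source of every library is brain, so RNA of all cell types was counted and not only that of the cells in which Cre acts. Age, sex and brain region are not given in the labels. In such bulk samples, fewer cells of a type and less RNA per cell cannot be told apart.

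GABA neurons make their transmitter from glutamate with the enzymes GAD67 and GAD65, which Gad1 and Gad2 encode, and pack it into synaptic vesicles with the transporter VGAT, encoded by Slc32a1. Released GABA is cleared by transporters such as GAT3, an astrocyte transporter encoded by Slc6a11, and is broken down in mitochondria by GABA transaminase, encoded by Abat. The GABA-B receptor is a G-protein coupled receptor that works only as a pair of GABBR1, which binds GABA, and GABBR2, which couples to the G protein. It opens potassium channels and slows calcium channels in neurons of many kinds, so its genes are not confined to GABA cells.

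The pairs Gad1 with Gad2 and Gabbr1 with Gabbr2 each serve 1 step of the pathway, and their start regions are shown because the levels of the paired genes are set side by side in what follows. The sequences are from RefSeq promoters of build GRCm38.p6, which held an entry for 6 of the 7 genes. Of the 250 bases before each RefSeq start, the longest stretch outside annotated exons is given 5′ to 3′ on the gene's own strand. Capitals mark a TATA box (TATAAA) or a GC box (GGGCGG), searched on both strands. The Gad1 stretch is chr2:70561879-70562041 on the plus strand, the Gad2 stretch is chr2:22622077-22622204 on the plus strand, the Gabbr1 stretch is chr17:37045716-37045965 on the plus strand and the Gabbr2 stretch is chr4:46991874-46991964 on the minus strand.
Gad1: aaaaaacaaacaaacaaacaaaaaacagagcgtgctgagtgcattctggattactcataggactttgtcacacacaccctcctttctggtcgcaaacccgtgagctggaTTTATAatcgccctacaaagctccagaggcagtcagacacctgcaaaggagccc
Gad2: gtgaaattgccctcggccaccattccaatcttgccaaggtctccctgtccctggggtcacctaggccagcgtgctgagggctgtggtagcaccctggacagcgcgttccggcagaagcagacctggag
Gabbr1: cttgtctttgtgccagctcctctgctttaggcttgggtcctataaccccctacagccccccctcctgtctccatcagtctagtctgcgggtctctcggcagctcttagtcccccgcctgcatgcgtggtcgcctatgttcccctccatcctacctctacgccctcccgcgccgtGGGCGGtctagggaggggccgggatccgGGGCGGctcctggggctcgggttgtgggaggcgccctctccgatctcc
Gabbr2: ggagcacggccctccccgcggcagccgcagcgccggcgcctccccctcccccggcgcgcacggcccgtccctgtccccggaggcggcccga
Gad1 held a TATA box on the minus strand 141 bases before its RefSeq start. Of the 32851 promoters of the same length, 12.4% hold this match on either strand. The Gad1 window, chr2:70561879-70562128, lies inside the gene span used for counting, which begins at 70553072 on the plus strand. Gad1 also held a GC box on the minus strand, 8 bases before its start and outside the printed stretch. The window of Gad2 held none of the 5 motifs searched. These were the 2 boxes above, the cAMP response element (TGACGTCA), an E-box (CACGTG) and a homeodomain core (TAATTA). Gabbr1 held 2 GC boxes, 76 and 48 bases before its start. Gabbr2 also held 2, 117 and 13 bases before its start, both in bases annotated as exon that are not printed. At least 1 GC box was found in 32.7% of all promoters. The 250-base windows of the pair Gad1 and Gad2 had a GC content of 58.0% and 64.0%, and those of Gabbr1 and Gabbr2 had 66.0% and 80.8%, against a median of 52.4% over all promoters.

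Libraries held between 41596313 and 69652824 counts in genes. The targeted gene Slc1a2 had a median of 3031 CPM (gene counts relative to the TMM-scaled library size) in syn Cre-positive and 3292 in syn Cre-negative libraries, and of 3549 in gfap Cre-positive and 3636 in gfap Cre-negative libraries. Its counts did not pass the test in either line, with log2 fold changes of −0.14 and −0.015 and adjusted p values of 1.00 in edgeR's quasi-likelihood test. In the syn line it spanned 2616 to 3235 CPM with Cre and 3227 to 3461 CPM without (unadjusted p = 0.0771 in the same test). Between the lines Slc1a2 was lower in syn than in gfap Cre-positive libraries (−0.21, adjusted p = 0.0440 in that test). Between Cre-negative libraries Slc1a2 did not pass (−0.082, adjusted p = 0.437). The deleted part of the gene is not given in the labels, so counts over the whole gene do not check the genotypes, and group names are those of the labels. Markers of forebrain excitatory neurons were high (Slc17a7 at 1030 to 1686 CPM), while Gabra6, a receptor subunit of cerebellar granule cells, lay between 0 and 0.126 CPM. The dopamine receptor gene Drd1, high in striatum, was at 3.57 to 7.58 CPM. Libraries differed in choroid plexus RNA: 3 of 6 libraries of each syn group had a mean of 4.53 to 5.65 log2 CPM over 16 choroid plexus genes, and the other 18 libraries had −0.27 to 1.85. Syn Cre-positive replicate 5 and gfap Cre-negative replicate 4 stood apart in several of the 7 genes. Results that rest on these libraries are given with and without them.

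Levels per kilobase were taken over all annotated exons of a gene joined, not over the transcripts expressed. The order between genes therefore depends on the annotation. Per kilobase of exon, Gabbr1 had the highest level of the 7 genes, with a mean of 104.9 ± 7.12 CPM per kb over all libraries (SD, n = 24). Gad1 followed with 57.7 ± 4.94, Gabbr2 with 47.1 ± 6.74, Abat with 38.0 ± 3.00, Slc6a11 with 35.1 ± 3.77, Gad2 with 32.5 ± 3.58 and Slc32a1 with 20.3 ± 2.61. In that order only Gabbr1 and Gad1 had ranges over the libraries that did not overlap. Gad1 was above Gabbr2 and Gad2 above Slc32a1 within each of the 24 libraries. Slc6a11 was above Gad2 in 20 of 24, and Abat above Slc6a11 in 22 of 24, so the spread between libraries covers these steps.

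The comparison of Cre-positive with Cre-negative mice asks whether loss of EAAT2 in neurons or in astrocytes goes with a change in GABA genes. None of the 7 genes passed the test in either line. In the syn line 0 of 7 were called, where 0.00507% of all tested genes were called (1 gene, Aqp4, an astrocyte water channel), and in the gfap line 0 of 7, where 0.0101% were called (2 genes). At an unadjusted p under 0.05 the test marked 922 and 590 genes in these lines, none of them among the 7. DESeq2 and limma-voom also called 0 of the 7 in each line. The median log2 fold change of the 7 was −0.0018 in the syn line and −0.0013 in the gfap line, and that of all tested genes was −0.0029 and −0.0026.

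For the synthesis enzymes, Gad1 had 355 to 450 CPM with a median of 414 in syn Cre-positive libraries, and 389 to 434 CPM with a median of 417 in syn Cre-negative libraries. The 95% interval of its difference ran from −8.59% to 5.24%. In the gfap line Gad1 had 423 to 494 CPM (median 477) with Cre and 457 to 483 CPM (median 472) without, an interval of −7.62% to 6.36%. Groups overlapped in both lines. Gad2 had 151 to 247 CPM (median 179) in syn Cre-positive libraries and 173 to 197 CPM (median 182) in syn Cre-negative libraries, with an interval of −9.58% to 14.3%. The highest value, 247 CPM, was that of replicate 5, and the other 5 syn Cre-positive libraries reached at most 186. In gfap Cre-positive libraries Gad2 had 183 to 225 CPM (median 194), against 165 to 215 CPM (median 198) in gfap Cre-negative libraries, with an interval of −8.99% to 15.0%.

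Slc32a1, which marks the vesicles of GABA and glycine neurons, had 43.0 to 78.6 CPM (median 52.1) in syn Cre-positive and 45.3 to 64.5 CPM (median 58.0) in syn Cre-negative libraries. It was the gene with the widest interval among the 7, −13.8% to 15.7%. In gfap Cre-positive libraries it had 51.5 to 62.1 CPM (median 57.2), and in gfap Cre-negative libraries 53.5 to 63.3 CPM (median 58.4), an interval of −15.5% to 13.5%. The groups of each line overlapped.

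For uptake and breakdown the groups of a line overlapped as well. Slc6a11 had 154 to 226 CPM (median 158) in syn Cre-positive libraries and 152 to 175 CPM (median 169) in syn Cre-negative libraries, with an interval of −6.87% to 15.0%. Its fold change was positive with replicate 5 of the syn Cre-positive group and negative without it (log2 0.050 and −0.046), and in neither case did it pass the test. The gfap Cre-positive libraries had 177 to 199 CPM (median 183) and the gfap Cre-negative libraries 155 to 199 CPM (median 194), an interval of −11.4% to 9.33%. Abat had 259 to 337 CPM (median 286) in syn Cre-positive and 274 to 309 CPM (median 288) in syn Cre-negative libraries, with an interval of −9.16% to 9.20%. For Abat in the gfap line, Cre-positive libraries had 282 to 326 CPM (median 297) and Cre-negative libraries 238 to 325 CPM (median 315), an interval of −7.71% to 10.9%.

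The receptor subunits showed the narrowest and some of the widest intervals. Gabbr1 had 774 to 796 CPM (median 781) in syn Cre-positive libraries and 705 to 783 CPM (median 758) in syn Cre-negative libraries. With a log2 fold change of 0.061 ± 0.038 (SE) it had the smallest unadjusted p of the 7 in either line, 0.121, and 2 of its 6 Cre-positive libraries lay above all Cre-negative ones. Its interval was −1.18% to 10.1%. In gfap Cre-positive libraries Gabbr1 had 828 to 924 CPM (median 849), against 819 to 895 CPM (median 863) in gfap Cre-negative libraries, with an interval of −5.35% to 5.45%. Gabbr2 had 252 to 305 CPM (median 283) in syn Cre-positive and 281 to 309 CPM (median 291) in syn Cre-negative libraries, with 3 of 6 Cre-positive libraries below all Cre-negative ones and an interval of −16.1% to 7.96%. In the gfap line it had 304 to 400 CPM (median 335) with Cre and 234 to 393 CPM (median 354) without, an interval of −10.6% to 15.1%.

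**Figure D1:**
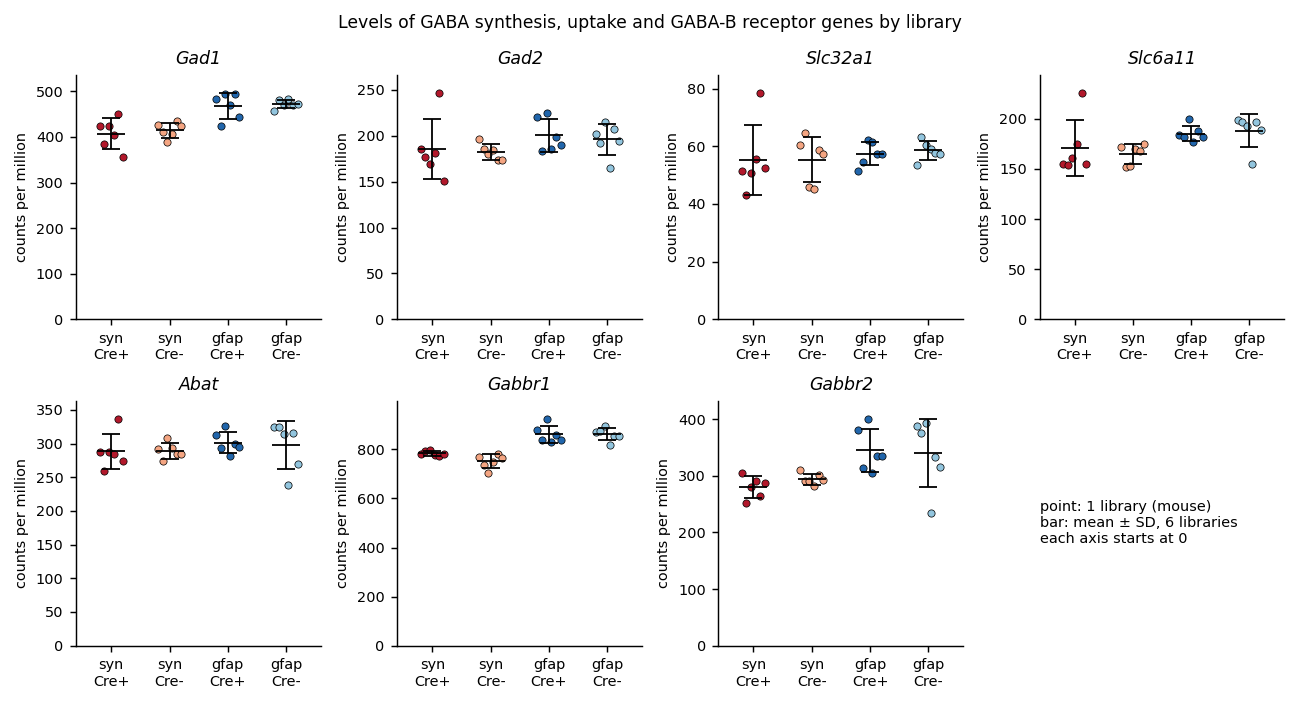
CPM values of the 7 genes in each library (points), with the mean and SD of 6 libraries (bars), for syn Cre-positive, syn Cre-negative, gfap Cre-positive and gfap Cre-negative mice. Cre-positive and Cre-negative points of a line overlap for every gene, while the 12 syn points of Gabbr1 (705 to 796) lie below its 12 gfap points (819 to 924).

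The effect of Cre in the syn line was also set against its effect in the gfap line in 1 interaction test, and 0 of the 7 genes were called (0.0101% of all tested genes, 2 genes). Line, labelled genotype (EAAT2−/− or EAAT2Δ/+) and targeted cell type change together here and cannot be told apart. At an unadjusted p under 0.05 this test marked 691 genes and none of the 7, DESeq2 and limma-voom called none of the 7, and the smallest unadjusted p of the 7 was 0.258, for Gabbr1. The intervals of this difference reached from −21.6% for Gabbr2 to 25.6% for Slc32a1. These intervals include 0 for each of the 7 genes.

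Genes around the 7 in the pathway were read from 2 lists, chosen for their role with earlier results of these data known. The list of GABA transport and breakdown partners held 11 genes, all tested. It includes Slc6a13 for GAT2, a transporter of meninges and vessels in brain, Aldh5a1 for the dehydrogenase that acts after Abat, and Slc38a3 for an astrocyte glutamine transporter. The list of GABA-B effectors and auxiliary proteins held 19 genes, all tested, with potassium channel, G protein and KCTD subunits. In both Cre comparisons and in the interaction test 0 genes of either list were called. Slc6a13 had a log2 fold change of 0.28 ± 0.34 (SE) in the syn line and 0.33 ± 0.34 in the gfap line, at levels of 2.96 to 11.6 CPM over all libraries. Among 23 tested genes that mark classes of GABA neurons edgeR's test called 0 in either line. In the syn line 1 of them, Nxph1, a secreted neurexin ligand of some inhibitory neurons, was called in other fits, and it is named here because of those calls. It had 24.2, 23.9, 25.4, 26.0, 38.9 and 21.5 CPM in syn Cre-positive replicates 1 to 6 and 32.8 to 40.2 CPM (median 36.3) in syn Cre-negative libraries. All syn Cre-positive libraries other than replicate 5 lay below all syn Cre-negative ones. Its log2 fold change was −0.46 ± 0.10 (SE) with an adjusted p of 0.263 in edgeR's test, against −0.45 with an adjusted p of 0.0171 in DESeq2 and −0.52 with 0.0121 in limma-voom. Without replicate 5 edgeR's test gave −0.59 with an adjusted p of 5.74e-05, and with any other library left out Nxph1 was not called. In the gfap line it had −0.10 ± 0.099 (SE), and the interaction was −0.35 ± 0.14 (SE) with an adjusted p of 1.00 in edgeR's test. Of the cell type and region lists the astrocyte list alone held a call, Aqp4 in the syn line (log2 0.55, adjusted p = 2.03e-05 in edgeR's quasi-likelihood test).

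**Figure D2:**
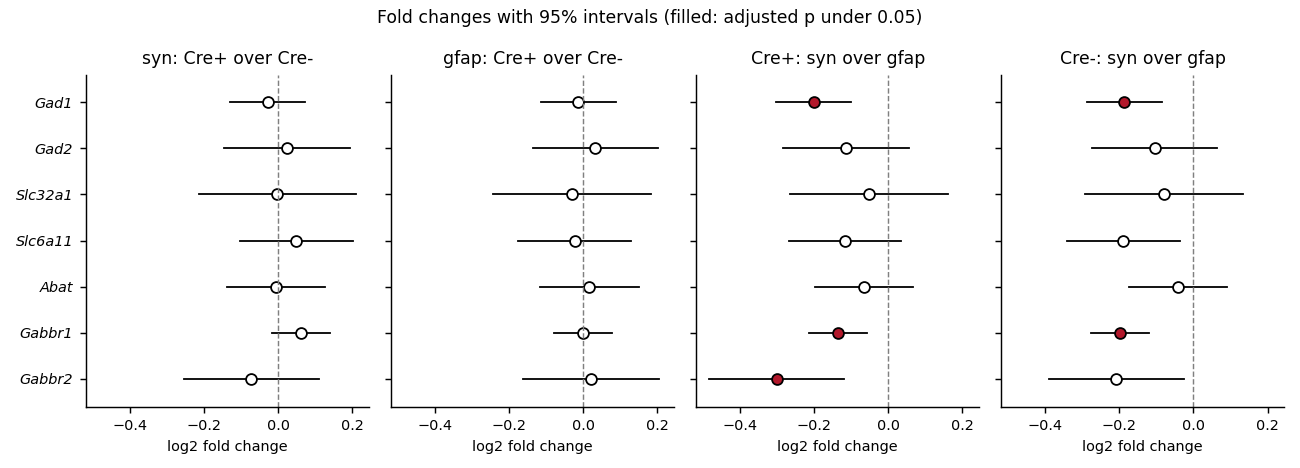
Log2 fold changes of the 7 genes (points) with their 95% intervals (lines) in 4 comparisons, filled where the adjusted p of edgeR's quasi-likelihood test was under 0.05. Both Cre comparisons hold open points only, whereas all points of both comparisons between the lines lie below 0, with Gad1 and Gabbr1 filled in both and Gabbr2 in the Cre-positive mice.

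The study's design also holds mice of 2 lines, and these were compared within the Cre-positive and within the Cre-negative mice. The 2 comparisons share no libraries. Line goes with whatever else differed between the cohorts. The labels give no litter, date or batch, so line and cohort cannot be told apart. The libraries themselves differed by line in the share of each file placed outside annotated genes. It was 4.47 to 6.37% in gfap files and 7.52 to 8.63% in syn files other than syn Cre-negative replicate 5. That library had 11.1%, with a further 7.46% ambiguous between genes and 4.71% not aligned. All 7 genes had negative fold changes in both comparisons, also with both other scalings, and Gad1 and Gabbr1 were called lower in syn mice in both. Among Cre-positive mice 3 of 7 genes were called, all lower, where 27.5% of all tested genes were called and 14.7% were called lower. Among Cre-negative mice 2 of 7 were called, both lower, where 31.2% of all tested genes were called and 16.6% were called lower. The median log2 fold change of the 7 was −0.12 among Cre-positive and −0.19 among Cre-negative mice, and that of all tested genes was −0.022 and −0.021. Of the called genes 46.5% and 46.8% were higher in syn mice, a share that was 58.0% and 52.8% with RLE scaling and 65.5% and 58.5% with upper-quartile scaling. Whether the 7 as a group differ from other genes was not tested.

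Gad1 fell by 0.20 on the log2 scale (SE 0.050) in syn Cre-positive relative to gfap Cre-positive libraries, with an adjusted p of 0.00392 in edgeR's quasi-likelihood test, and 3 of 6 syn libraries lay below all gfap ones. Between Cre-negative mice it fell by 0.19 (SE 0.050, adjusted p = 0.00587), and all 6 syn Cre-negative libraries (389 to 434 CPM) lay below all gfap Cre-negative ones (457 to 483 CPM). The other synthesis gene, Gad2, had values of −0.11 ± 0.082 (SE) among Cre-positive and −0.10 ± 0.082 among Cre-negative mice, with adjusted p values of 0.321 and 0.346 in edgeR's test. Slc32a1 had −0.052 ± 0.10 and −0.080 ± 0.10 and did not pass.

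On the log2 scale Gabbr1 fell by 0.14 (SE 0.038, adjusted p = 0.00936) among Cre-positive and by 0.20 (SE 0.038, adjusted p = 0.000357) among Cre-negative mice in edgeR's test. All 6 syn libraries lay below all 6 gfap libraries in both comparisons. Its partner Gabbr2 fell by 0.30 (SE 0.089, adjusted p = 0.0139) among Cre-positive mice, with 5 of 6 syn libraries below all gfap ones. Among Cre-negative mice Gabbr2 had a log2 fold change of −0.21 ± 0.089 (SE) with an adjusted p of 0.0745, and the groups overlapped through gfap Cre-negative replicate 4, which had the lowest value of all libraries (234 CPM). Without that library the value was −0.28 with an adjusted p of 0.00200. Slc6a11 had −0.12 ± 0.074 among Cre-positive and −0.19 ± 0.074 among Cre-negative mice (adjusted p = 0.253 and 0.0520 in edgeR's test). Abat had the smallest fold change of the 7 among Cre-negative mice, −0.042 ± 0.065, and −0.065 ± 0.065 among Cre-positive mice.

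Single libraries and the choroid plexus split moved these calls. Without syn Cre-positive replicate 5, 5 of 7 genes were called lower among Cre-positive mice, where 12.1% of all tested genes were called lower, with Gad2 at −0.21 (adjusted p = 0.0190) and Slc6a11 at −0.21 (adjusted p = 0.00853) added in edgeR's test. Without gfap Cre-negative replicate 4, 4 of 7 were called lower among Cre-negative mice, where 13.5% of all tested genes were called lower, with Slc6a11 at −0.23 (adjusted p = 0.0163) and Gabbr2 added. Without both libraries 5 and 4 of 7 were called lower among Cre-positive and Cre-negative mice, beside 12% and 13.7% of all tested genes, and with limma-voom 3 and 4 of 7, beside 17.4% and 15.4%. In the 18 libraries low in choroid plexus genes, which leave 3 mice in each syn group and 6 in each gfap group, 0 of 7 were called among Cre-positive mice and 1 of 7, Gabbr1, among Cre-negative mice. Calls over all genes were fewer there too, with 3.36% of all tested genes called lower among Cre-positive and 7.68% among Cre-negative mice. There the values were −0.14 for Gad1, −0.11 for Gabbr1 and −0.21 for Gabbr2 among Cre-positive mice, and −0.14 for Gad1 and −0.16 for Gabbr1 among Cre-negative mice. With upper-quartile scaling Gabbr1 was at −0.091 among Cre-positive mice and no longer passed (adjusted p = 0.0623), and with a filter of at least 1 CPM in 6 libraries it was at −0.088 (adjusted p = 0.0571 in edgeR's test).

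Other genes of the pathway and of cell types also differed between the lines. Of the 19 GABA-B effectors and auxiliary proteins, 7 fell among Cre-positive mice and 7 among Cre-negative mice, none rose, where 14.7% and 16.6% of all tested genes were called lower. The list's median log2 fold change was −0.11 and −0.10. Ajap1, which binds the GABA-B receptor at the cell surface, averaged 33.9 ± 1.02 CPM in syn Cre-positive and 43.4 ± 2.66 CPM in gfap Cre-positive libraries (SD, n = 6 each). The fold change on the log2 scale was −0.36 among Cre-positive and −0.32 among Cre-negative mice, with adjusted p values of 8.89e-06 and 3.06e-05 in edgeR's test. Kctd12, whose protein is an auxiliary subunit of the receptor, averaged 66.3 ± 3.38 CPM in syn Cre-positive and 84.1 ± 4.10 CPM in gfap Cre-positive libraries, and fell by 0.34 among Cre-positive and by 0.30 among Cre-negative mice. Kcnj3, a subunit of the potassium channels that the receptor opens, fell by 0.18 and by 0.24. Gnb5, a G protein beta subunit that works with RGS proteins, fell by 0.22 among Cre-positive and by 0.23 among Cre-negative mice. In the 18 libraries low in choroid plexus genes the list held 2 calls among Cre-positive and 6 among Cre-negative mice, all lower, where 3.36% and 7.68% of all tested genes were called lower.

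Among the 11 transport and breakdown partners, 1 rose and 1 fell among Cre-positive mice, and likewise among Cre-negative mice. Over all tested genes 12.8% and 14.6% were called higher and 14.7% and 16.6% lower, so these counts do not set the list apart. The gene that rose was Slc38a3, by 0.34 among Cre-positive and by 0.29 among Cre-negative mice. Aldh5a1 fell by 0.14 and by 0.13. With RLE or upper-quartile scaling no gene of the list was called lower, and with the choroid plexus covariate none was called higher. With limma-voom none was called higher among Cre-negative mice. Slc6a13 had −0.15 ± 0.34 (SE) among Cre-positive and −0.093 ± 0.34 among Cre-negative mice. In the 18 libraries low in choroid plexus genes 0 of these 11 were called in either comparison. Of 23 tested genes of GABA neuron classes, 7 fell among Cre-positive and 5 among Cre-negative mice, and none rose, beside the same shares of all genes called lower (14.7% and 16.6%). They included Kcnc2, a potassium channel of fast-spiking cells (−0.25 and −0.24), and Calb1, a calcium-binding protein (−0.34 and −0.30). Nxph1 fell by 0.53 among Cre-positive mice, but was not called among Cre-negative mice (−0.18, adjusted p = 0.170 in edgeR's test). Htr3a, a serotonin-gated channel of some interneurons, fell by 0.39 among Cre-negative mice. In the low choroid plexus libraries 2 of the 23 fell in each comparison, beside 3.36% and 7.68% of all genes.

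**Figure D3:**
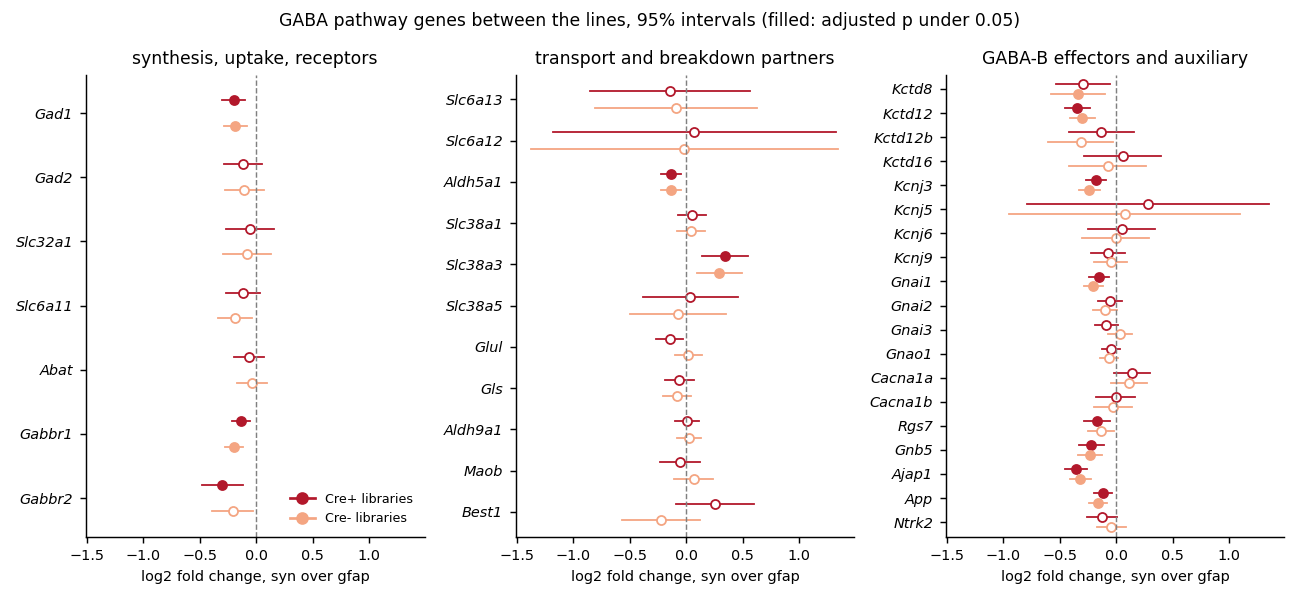
Log2 fold changes of the syn over the gfap line with 95% intervals for the 7 genes, 11 transport and breakdown partners and 19 GABA-B effectors and auxiliary proteins, among Cre-positive mice (dark) and Cre-negative mice (light), filled where the adjusted p was under 0.05. Of the 19 effector genes, 7 are filled below 0 in each comparison, Ajap1 and Kctd12 among them, and Slc38a3 is the gene filled above 0.

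Cell type markers were also compared between the lines. Among Cre-positive mice 12.8% of all tested genes were called higher and 14.7% lower, and among Cre-negative mice 14.6% and 16.6%. The counts below are to be read beside these shares, and lists such as the astrocyte list held counts near them. Of 16 choroid plexus genes 13 rose among Cre-positive and 16 among Cre-negative mice in edgeR's test (0 and 1 in limma-voom with library quality weights), with summed levels of 290 to 6990 CPM in syn Cre-positive and 228 to 543 CPM in gfap Cre-positive libraries, and of 325 to 7523 CPM in syn Cre-negative and 219 to 462 CPM in gfap Cre-negative libraries. Of 14 oligodendrocyte genes 14 and 12 rose, with summed levels of 6389 to 8538 CPM in syn Cre-positive and 4043 to 5960 CPM in gfap Cre-positive libraries, and of 5988 to 9213 CPM in syn Cre-negative and 4552 to 5806 CPM in gfap Cre-negative libraries. Of 15 cortical excitatory genes 7 fell in each comparison. Slc17a7, the vesicle transporter of cortical glutamate neurons, fell by 0.31 among Cre-positive and by 0.24 among Cre-negative mice, and the list of 3 glutamate vesicle transporters held 2 and 1 genes that fell. Of 14 endothelial genes 8 and 6 fell, of 14 microglia genes 4 and 1 fell, and of 18 astrocyte genes 3 rose and 3 fell among Cre-positive mice and 2 rose and 2 fell among Cre-negative mice. Of 18 tested striatal genes 2 and 5 fell. Of 14 tested thalamic and hypothalamic genes 4 and 1 rose. Of 12 tested cerebellar genes 4 rose and 2 fell among Cre-positive mice, and 3 fell among Cre-negative mice. Cerebellar genes that rose were low in syn Cre-positive libraries, with means of 0.34 CPM for Pcp2, 0.63 for Cbln3 and 1.29 for En2. Thalamic and hypothalamic genes that rose there had 0.88 ± 0.79 CPM (Trh), 1.64 ± 2.36 (Six3) and 6.71 ± 4.38 (Tcf7l2). Syn Cre-positive replicate 5 had 337 CPM summed over that list, against 148 to 170 in the rest of its group. The part of these shifts in the values of the 7 genes was not tested, other than by the low choroid plexus libraries and by a fit with the choroid plexus level as a covariate, which called 3 and 2 of the 7 lower, beside 12.6% and 13.1% of all tested genes.

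Ratios between genes that serve the same step do not depend on library scaling. Their size per kilobase does depend on the annotated exon lengths, which are the same in all groups. The ratio of Gad1 to Gad2, per kilobase, had a median of 1.73 in syn Cre-positive and 1.70 in syn Cre-negative libraries, and of 1.79 in gfap Cre-positive and 1.81 in gfap Cre-negative libraries. The ratio of Gabbr1 to Gabbr2 had a median of 2.39 (2.21 to 2.71) in syn Cre-positive and 2.21 (2.09 to 2.29) in syn Cre-negative libraries, and 5 of 6 Cre-positive values lay above all Cre-negative ones. The difference was 0.14 on the log2 scale, with a two-sided exact permutation p of 0.0152, which became 0.182 after adjustment over 12 ratio tests, of which 8 are given here. Without syn Cre-positive replicate 1 it was 0.16 with an adjusted p of 0.0260 in the exact permutation test, and without any other library the adjusted p lay between 0.182 and 0.221. In the gfap line this ratio had medians of 2.18 with Cre and 2.11 without, and the difference of −0.037 had an exact permutation p of 0.792. Whether the difference in the syn line exceeds that in the gfap line was not tested. The syn Cre-positive against the gfap Cre-positive libraries, which shares the first group, gave 0.16 with an adjusted p of 0.182 in the exact permutation test. None of the 8 tests passed after adjustment.

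**Figure D4:**
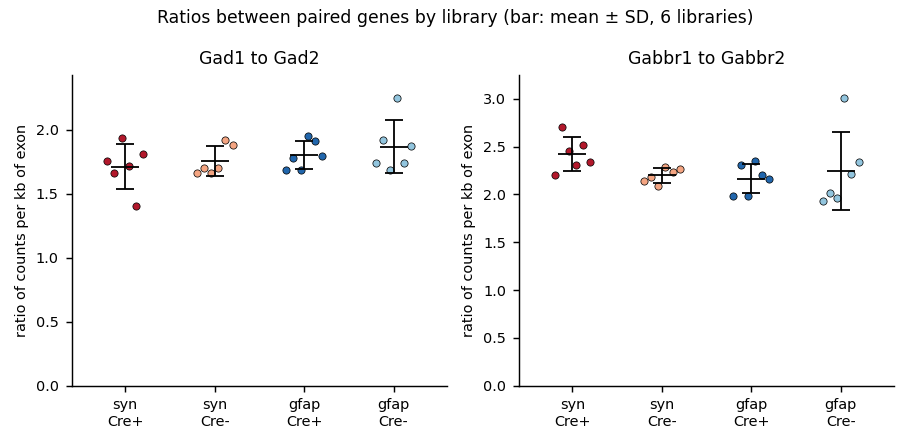
Ratios of counts per kb of exon in each library (points), with mean and SD of 6 libraries (bars), for Gad1 to Gad2 and Gabbr1 to Gabbr2. In the second panel 5 of 6 syn Cre-positive values lie above all syn Cre-negative values (2.09 to 2.29), and 1 gfap Cre-negative library lies at 3.01.

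The 7 genes also varied between mice of a group, and these deviations were read as descriptions over 24 libraries after removing group means, with no p. The libraries share depth, scaling and tissue makeup, and the values were taken again over 22 libraries without the pair that stood apart. Gabbr1 and Gabbr2 varied together (Pearson r 0.67, and 0.61 over 22 libraries), as did Abat with Gabbr2 (0.73 and 0.75) and Gad1 with Gad2 (0.56 and 0.55). Pairs from different steps reached like values over 22 libraries, so the paired genes did not stand out. Among these were Slc6a11 with Gabbr1 (0.39 and 0.62), Gad2 with Gabbr2 (0.44 and 0.56) and Gad1 with Gabbr1 (0.37 and 0.55). The relations of Gad2 with Slc6a11 (0.78 and 0.31), of Slc6a11 with Abat (0.76 and 0.39) and of Slc32a1 with Gad2 (0.46 and −0.010) rested on the pair of libraries that stood apart. In syn Cre-positive replicate 5, Slc32a1 was 0.53, Gad2 0.43, Slc6a11 0.42 and Abat 0.23 above the group mean on the log2 scale, while Gabbr1 was at −0.017 and Gabbr2 at −0.078. The same library had a mean of 4.39 log2 CPM over 18 striatal genes, against 3.56 to 3.96 in the other 23 libraries, and of 2.73 over 14 thalamic and hypothalamic genes, against 0.77 to 1.93. In gfap Cre-negative replicate 4, Gabbr2 was at −0.52, Abat at −0.31, Slc6a11 at −0.27 and Gad2 at −0.24, while Gad1 was at 0.034 and Slc32a1 at 0.015.

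**Figure D5:**
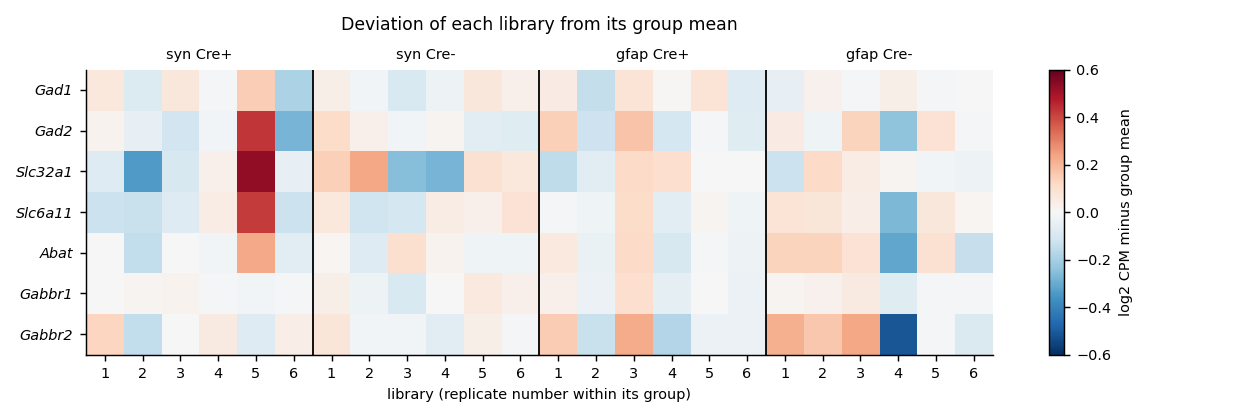
Deviation of each library from the mean of its group for the 7 genes, in log2 CPM, with red above and blue below the mean. Syn Cre-positive replicate 5 is high for Slc32a1 (0.53), Gad2 (0.43), Slc6a11 (0.42) and Abat (0.23), and gfap Cre-negative replicate 4 is low for Gabbr2 (−0.52) and Abat (−0.31).

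By the same measure, the tested genes most like each of the 7 were found over 24 libraries, and each pair of values gives Pearson r over 24 and then over 22 libraries. For Gad1 these were Ccer2 (0.85 and 0.83), Rit2 (0.82 and 0.80) and Bend6 (0.80 and 0.80). Those of Gad2 were Usp29 (0.89 and 0.78), Gnal (0.88 and 0.69) and Pou3f4 (0.84 and 0.73). Slc32a1 was most like Cpne5 (0.88 and 0.79), Rap1gap (0.83 and 0.81) and Vat1 (0.82 and 0.65). Slc6a11 was most like Adcy5 (0.80 and 0.41), Tbc1d2b (0.77 and 0.61) and Pcdhgc3 (0.77 and 0.56), all lower over 22 libraries. Abat was most like Cask (0.82 and 0.71), Pcdhgc3 (0.82 and 0.52) and Mcm9 (0.81 and 0.68), also lower. The subunit Gabbr1 went most with Lynx1 (0.87 and 0.85), Dnm1 (0.84 and 0.84) and Entpd7 (0.82 and 0.81). Gabbr2 went most with Cmip (0.93 and 0.84), Cyfip2 (0.92 and 0.83) and Ubap2l (0.92 and 0.81).

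The genes lie apart in the genome, with Gad1, Gad2 and Slc32a1 on chromosome 2 (GRCm38). Gad1 (ENSMUSG00000070880) spans 70553072 to 70602014, Gad2 (ENSMUSG00000026787) 22622205 to 22693874, and Slc32a1 (ENSMUSG00000037771) 158610767 to 158615748. Slc6a11 (ENSMUSG00000030307) is on chromosome 6 from 114131241 to 114249952, and Abat (ENSMUSG00000057880) on chromosome 16 from 8513429 to 8621568. Gabbr1 (ENSMUSG00000024462) is on chromosome 17 from 37045966 to 37075067, and Gabbr2 (ENSMUSG00000039809) on chromosome 4 from 46662305 to 46991873. Antisense genes overlap Gad1 and Slc32a1, but held 134 and 9 counts over all libraries, against 544404 for Gad1 and 70000 for Slc32a1. The antisense gene at Gad1 shares no exon with it, while that at Slc32a1 overlaps its exons. The strand setting of the counting is not given, so reads in bases shared by Slc32a1 and its antisense partner cannot be told apart.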

How the data were processed

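RNA of 24 mouse brains was sequenced after purification with a lipid tissue kit, per the labels' protocols. The deposited files give raw counts for each gene as whole numbers. Per the submitters' processing notes, the authors' tools were HTSeq 0.6.0, DESeq2 1.6.3 and HISAT2, whose version is not given, with build mm10. Lines that name no gene (26.2 to 39.8% of each file) were left out. The 39.8% was that of syn Cre-negative replicate 5, and the other files had at most 30.8%. Symbols came from GENCODE M21, which matched 52489 of 52636 identifiers (99.7%).

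edgeR 4.0.16 in R 4.3.3 was run on the 19726 genes that passed filterByExpr, with TMM factors and a single model of 4 groups that left 20 residual degrees of freedom. The quasi-likelihood F test with Benjamini-Hochberg adjustment over all tested genes was called under 0.05, and intervals are 95%. Ratios were tested by two-sided exact permutation over 924 arrangements (smallest p 0.00216). The scripts were tested on simulated data. The 7 genes and 13 further lists (194 genes) were chosen with earlier results of these data known. Named are the 7 genes, Slc6a13, called list genes by p (up to 3 per direction between lines), and the 3 genes most correlated with each of the 7. Kcnj3, Gnb5 and Nxph1, each named by this rule in 1 line comparison, are given in both, and Nxph1 also in the syn line. Alternatives were DESeq2 1.42.0, limma-voom (limma 3.58.1), other scalings and filters, a choroid plexus covariate and leaving out each library. After seeing the data, fits without the pair of libraries that stood apart and with low choroid plexus libraries alone were added. Some list genes and the ratio that needs one of them are not reported here. Replicate numbers follow accession order and pair no mice.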

Additional observations from a re-analysis of the deposited data

Results flagged for a closer look

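Over 40 groups of 6 values (7 genes, Slc6a13 and 2 ratios), 5 held a library whose gap to its nearest neighbour was large for the range of the group, and chance flags about 1 in 20 groups. Of these, 4 were values of syn Cre-positive replicate 5, so they are not independent of each other. In that library Gad2 was at 247 CPM where the other 5 libraries of its group lay between 151 and 186, Slc32a1 was at 78.6 CPM where the others lay between 43.0 and 55.5, and Slc6a11 was at 226 CPM where the others lay between 154 and 174. Abat was at 337 CPM (others 259 to 287). The other flag was a low value, Slc6a11 at 155 CPM in gfap Cre-negative replicate 4, where the other 5 libraries of the group lay between 189 and 199 CPM.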

How the results depend on the processing

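In each Cre comparison and in their interaction 0 of the 7 genes were called under every alternative run, leaving out each library included. Between Cre-positive mice the count of 3 became 5 without both libraries that stood apart and 0 in the low choroid plexus libraries, and lay between 3 and 5 with 1 library left out. Between Cre-negative mice the count of 2 became 4 with limma-voom, 4 without both libraries and 1 in the low choroid plexus libraries, and lay between 2 and 4 with 1 library left out. In those low choroid plexus libraries Slc32a1 was at 0.082 between Cre-negative mice. With all libraries kept and the filter of at least 1 CPM in 6 libraries, Abat was at 0.00032 between Cre-negative mice. The cause of these shifts was not tested. No paired analysis was possible because the replicate numbers follow accession order and pair no mice.

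Other sign changes were of fold changes that did not pass the test, on the log2 scale. In the syn line Slc32a1 was at 0.0019 with RLE, 0.0068 with upper-quartile scaling, 0.0031 with the CPM filter, 0.0020 with DESeq2 and 0.0036 with only these groups, and Abat was at 0.0012 with upper-quartile scaling. Without both libraries Gad2 was at −0.072 and Slc6a11 at −0.043 there, and in the low choroid plexus libraries Gad2 was at −0.043 and Abat at 0.025. In the gfap line limma-voom gave −0.016 for Gad2, −0.020 for Abat and −0.030 for Gabbr2, the choroid plexus covariate gave 0.00043 for Gabbr1, and without both libraries Gad2 was at −0.014, Abat at −0.042 and Gabbr2 at −0.069. In the interaction Gad2 was at 0.00021 with RLE, 0.0023 with upper-quartile scaling, 0.00026 with DESeq2 and 0.019 with limma-voom, which also gave −0.018 for Slc32a1 and 0.0023 for Abat. Without both libraries the interaction was −0.094 for Slc32a1 and 0.016 for Gabbr2, and in the low choroid plexus libraries it was 0.0042 for Gad1, −0.18 for Slc32a1 and 0.010 for Abat.

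With 1 library left out, the syn line gave Gad1 −0.058 to 0.011, Gad2 −0.075 to 0.079, Slc32a1 −0.13 to 0.062, Slc6a11 −0.046 to 0.079 and Abat −0.054 to 0.023. The gfap line gave Gad1 −0.031 to 0.011, Gad2 −0.014 to 0.056, Abat −0.042 to 0.043, Gabbr1 −0.023 to 0.0092 and Gabbr2 −0.069 to 0.063. The interaction gave Gad1 −0.045 to 0.027, Gad2 −0.11 to 0.048, Slc32a1 −0.097 to 0.092, Slc6a11 −0.023 to 0.13 and Abat −0.071 to 0.038, and Slc32a1 between Cre-positive mice was −0.18 to 0.011. The ratio of Gabbr1 to Gabbr2 gave 0.10 to 0.16 in the syn line, −0.077 to 0.051 in the gfap line and −0.051 to 0.077 between Cre-negative mice. The ratio of Gad1 to Gad2 gave −0.076 to 0.017 in the syn line and −0.076 to 0.0073 in the gfap line.

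Over all genes, the syn line's count of 1 was 5 with no filter, 14 with DESeq2, 7 with limma-voom, 2 with only these groups, 5 without both libraries, 3 in the low choroid plexus libraries and 1 to 3 with 1 library left out. Between the lines, the low choroid plexus libraries gave 2259 calls among Cre-positive and 3647 among Cre-negative mice, against 5416 and 6161 over all libraries.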
